A study of Danio rerio with 6 samples.

Results

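The AP-2 transcription factors of the zebrafish were followed in embryos injected with a morpholino against setb. The family was taken as the probe sets that the platform annotation assigns to a single gene symbol beginning with tfap2. All 5 genes of that name in the gene table, tfap2a, tfap2b, tfap2c, tfap2d and tfap2e, were measured, each by 1 probe set, out of 15726 probe sets and 11304 named genes. The family was selected on the difference of tfap2d between the setb MO1 and control arrays, seen in earlier results. The values of tfap2d are therefore given as a description without a test, whereas the other genes entered by their names and are tested.

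The data came from 6 Affymetrix arrays, each hybridised with biotin-labelled total RNA of zebrafish embryos aged 48 h after fertilization. Injections were made into embryos of 1 cell, for 3 samples with a control morpholino and for the other 3 with setb MO1, a morpholino against setb. Morpholinos are antisense oligonucleotides that block translation or splicing of a transcript, and setb is a counterpart of SET, which chaperones histones and inhibits a protein phosphatase. The labels name no strain, transgene or mutant allele, describe the embryos as normal-like, mildly or moderately affected without giving the class behind each sample, and do not say whether the samples came from separate clutches. P-values therefore reflect variation among these samples only, part of which may be technical. Because RNA of whole embryos was measured, fewer cells of a type and less RNA per cell cannot be told apart.

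Array medians lay between 9.47 and 9.49 on the log2 scale, and precision is limited by how few arrays there are. Of all probe sets, 44% passed the test between the groups (limma adjusted p below 0.05), 21.4% lower and 22.7% higher in setb MO1 embryos. The change over all probe sets had a median of 0.02 (log2). The setb transcript itself changed by 0.19 ± 0.07 (SE, n = 3 and 3, limma adjusted p = 0.0471). The labels do not say if MO1 acts on translation or on splicing, so this value does not check them.

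AP-2 proteins bind GC-rich DNA as dimers through a basic helix-span-helix domain. In vertebrate embryos they are known for the formation of non-neural ectoderm and neural crest, and for the specification of some neurons of the retina and the brain. The zebrafish gene tfap2a is required for neural crest derivatives such as pigment cells and jaw cartilage, and tfap2c acts together with it in the induction of the neural crest. The gene tfap2e can contribute to melanophore development together with tfap2a. In the mouse, the counterpart of tfap2b acts in amacrine and horizontal cells of the retina and in the kidney, and that of tfap2d is known from the midbrain and from retinal ganglion cells.

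The AP-2 genes differed between setb MO1 and control embryos by very unequal amounts. The level of tfap2d, which was selected for this difference, was 7.11-fold lower in setb MO1 embryos. It was 2.42-fold lower for tfap2b, 1.91-fold for tfap2e and 1.18-fold for tfap2a, whereas tfap2c differed by 1.01-fold. Of the 4 genes that were tested, tfap2a, tfap2b and tfap2e fell, tfap2c did not pass and none rose. The 3 of 4 that fell stand beside 21.4% of all probe sets called lower. In 3 of these 4 genes every setb MO1 array was below every control array, which held for 27.5% of all probe sets, and 56.5% were without overlap in either direction. Of the 4, only tfap2b was at least 2-fold lower, as were 2.11% of all probe sets.

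**Figure D1:**
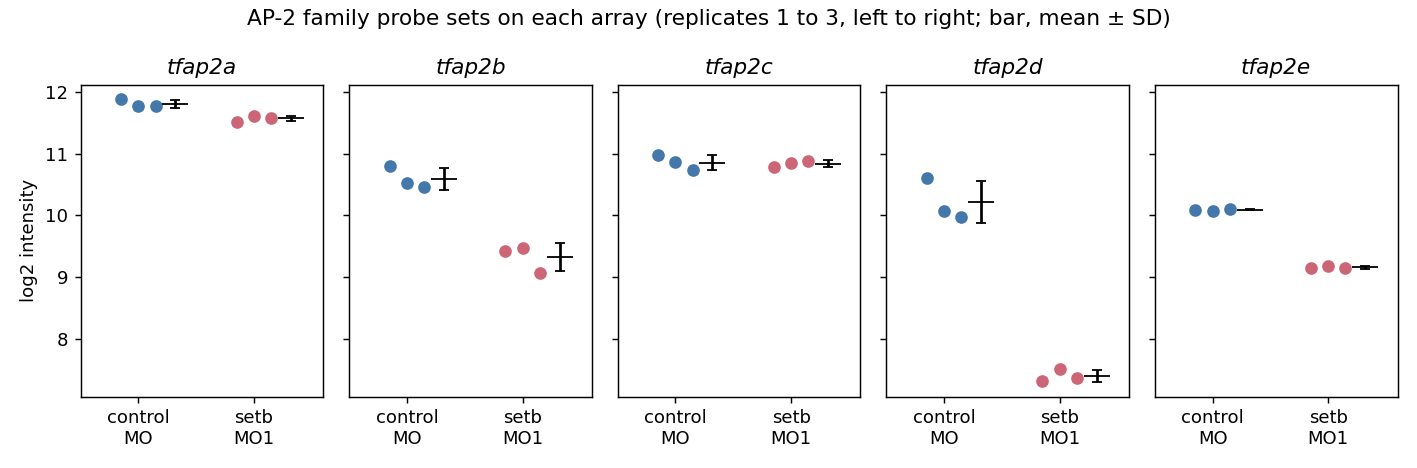
Log2 intensity of the 5 AP-2 probe sets on each array, with 1 point per array (control MO in blue, setb MO1 in red, replicates 1 to 3 from left to right) and the mean ± SD beside each group. The groups are far apart for tfap2d, apart for tfap2b and tfap2e, close for tfap2a and overlapping for tfap2c; levels of different probe sets are not comparable with each other.

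The log2 level of tfap2d was 10.61, 10.07 and 9.98 with the control MO and 7.30, 7.50 and 7.36 with setb MO1. The lowest control array thus lay 2.48 above the highest setb MO1 array, a gap several times as wide as the range of 0.63 within the control group and of 0.20 within the setb MO1 group. The group means were 10.22 ± 0.34 for control and 7.39 ± 0.10 for setb MO1 (SD, n = 3 each), a difference of −2.83 ± 0.16 (SE). This difference ranked 6 among the decreases of 15726 probe sets and 4 among those of 11304 genes, which is the reason the gene was singled out. The deposited probe sets all reached 8.45 on at least 1 array, and tfap2d did so only with the control MO, unlike the other AP-2 genes. Its setb MO1 values were dim, part of such a signal may be background, and the fold may then be understated. Selection of the gene for its large difference can in turn overstate that difference. Within the control group replicate 1 was the highest, and without it the difference was −2.63. The difference lay between −2.95 and −2.63 when each array was left out in turn.

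The gene tfap2b had the next larger difference. Its log2 level was 10.80, 10.53 and 10.46 with the control MO and 9.43, 9.48 and 9.07 with setb MO1, with every setb MO1 value at least 0.99 below the lowest control value. The change was −1.27 ± 0.13 (SE, 95% interval −1.58 to −0.96, n = 3 and 3, limma adjusted p = 0.000467), and 0.897% of all probe sets changed by as much or more in that direction. Control replicate 1 was the highest control array for this gene too, and setb MO1 replicate 3 was the lowest of all arrays. Leaving out single arrays gave changes of −1.35 to −1.14, all past the threshold.

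The level of tfap2e was the most even within groups. It was 10.10, 10.08 and 10.10 with the control MO and 9.14, 9.18 and 9.14 with setb MO1, so that the groups were separated by 0.90 and differed by no more than 0.04 within themselves. The gene fell by 0.93 on the log2 scale (−0.93 ± 0.06, SE, 95% interval −1.07 to −0.80, limma adjusted p = 0.000137), and 2.60% of all probe sets changed by as much or more downwards. Without single arrays the change was −0.95 to −0.93.

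The neural crest factor tfap2a fell by a small amount. Its log2 level was 11.89, 11.78 and 11.77 with the control MO and 11.52, 11.61 and 11.59 with setb MO1, with a gap of 0.16 between the groups. The change was −0.24 ± 0.07 (SE, 95% interval −0.39 to −0.08, limma adjusted p = 0.0222), and 23.1% of all probe sets changed by as much or more downwards. The call did not survive the omission of control replicate 2 (adjusted p = 0.0606) or of setb MO1 replicate 1 (0.0767) or 3 (0.0527), with changes of −0.26 to −0.20 over the single arrays left out.

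For tfap2c no difference was detected with 3 arrays a group. Its log2 level was 10.98, 10.86 and 10.73 with the control MO and 10.78, 10.86 and 10.89 with setb MO1, and all 3 setb MO1 values fell within the range of the control values. The difference was −0.01 ± 0.08 (SE, limma adjusted p = 0.898). Its 95% interval ran from −0.20 to 0.17 and lay above the intervals of tfap2b and tfap2e. It overlapped the interval of tfap2a, which ran from −0.39 to −0.08.

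**Figure D2:**
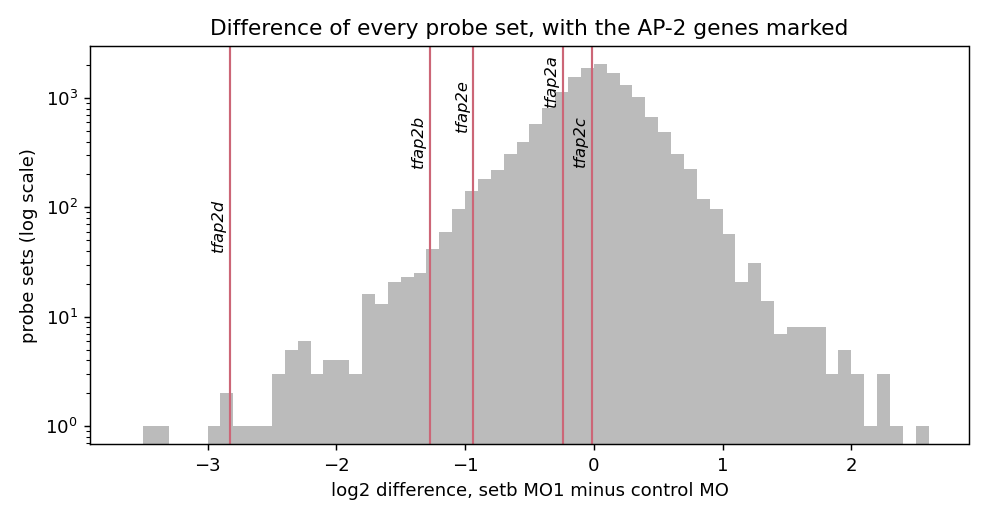
Number of probe sets (log scale) by log2 difference of setb MO1 minus control MO, for all 15726 probe sets, with the AP-2 genes as vertical lines. The line of tfap2d lies at −2.83 in the far lower tail, tfap2b and tfap2e lie at −1.27 and −0.93, and tfap2a and tfap2c lie near the centre.

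The AP-2 genes were then set in the order of their differences, from tfap2d through tfap2b, tfap2e and tfap2a to tfap2c, and neighbours in this order were set against each other array by array. The order was taken from the same values, so the signs were fixed by it and no test is given. The change of tfap2d minus that of tfap2b was −1.56. For tfap2b minus tfap2e it was −0.34, where the difference between the genes varied by an SD of 0.18 in the control and 0.21 in the setb MO1 arrays, so that this pair lay closest to its spread. The values were −0.70 for tfap2e minus tfap2a and −0.22 for tfap2a minus tfap2c.

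Replicates differed in a shared way for some of the genes. Control replicate 1 lay above the control mean by 0.39 for tfap2d, 0.20 for tfap2b, 0.12 for tfap2c and 0.08 for tfap2a, but by only 0.0043 for tfap2e. Control replicate 3 lay below the mean for the same 4 genes, with deviations of −0.24, −0.13, −0.12 and −0.04 in that order. The arrays share the RNA sample behind all probe sets, and the part of such differences in the group comparison was not tested beyond leaving out each array.

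In the gene table tfap2b and tfap2d are direct neighbours on the same chromosome, with 0 genes starting between them, and they were the AP-2 genes with the largest differences. The other AP-2 genes lie on chromosomes of their own. A gene of the table that is not protein-coding overlaps both tfap2b and tfap2d, and another such gene overlaps tfap2d alone. Whether the probes of tfap2b and tfap2d also read these genes was not tested. Of the 3 nearest protein-coding genes on either side of the pair, a set added after the data were examined, rab10 and hadhaa were measured. The gene rab10, which encodes a small GTPase of membrane traffic, differed by 0.18 ± 0.07 (SE, limma adjusted p = 0.0575) and did not pass. The gene hadhaa, which encodes a subunit of the mitochondrial trifunctional protein, fell by 0.28 (−0.28 ± 0.07, SE, adjusted p = 0.0163). Around tfap2e, 5 of the 6 nearest protein-coding genes were measured. Of these zgc:114119 fell (−0.26 ± 0.08, adjusted p = 0.0335), and ext1c (−0.24 ± 0.11), ncdn (0.18 ± 0.09), psmb2 (−0.0078 ± 0.092) and clspn (−0.15 ± 0.09) did not pass. Among the measured neighbours of tfap2a, slc35b3 rose (0.23 ± 0.07, limma adjusted p = 0.0409), and mak (−0.10 ± 0.07) and gcm2 (0.25 ± 0.09) did not pass. Neither did eya2 (0.05 ± 0.07) and rtf2 (−0.12 ± 0.06), the measured neighbours of tfap2c.

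Proteins known, mostly from mammalian cells, to bind or modify AP-2 factors were considered next. The list held 19 genes and was chosen with earlier results of these data known. Among the 12 that were measured, 5 fell, another 2 rose and the other 5 did not pass. Of all named genes, 20.7% were called lower and 23.8% higher, and the median difference was −0.22 on the list and 0.02 over all genes. The counts depended on single arrays. They were 2 lower and 1 higher without control replicate 2 and likewise without setb MO1 replicate 2, and 4 lower and 1 higher without setb MO1 replicate 3.

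Among the inhibitors, kctd15b encodes a BTB domain protein whose family binds the activation domain of AP-2 and limits neural crest formation in zebrafish. Its log2 level was 9.96, 9.51 and 9.35 with the control MO and 8.94, 9.03 and 8.95 with setb MO1. It fell by 0.64 (−0.64 ± 0.15, SE, limma adjusted p = 0.0114) and passed with each single array left out. Control replicate 1 was its highest array, as for tfap2d and tfap2b.

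CITED proteins are coactivators that link AP-2 to the acetyltransferases CBP and p300. The gene cited2 was at 9.64, 10.59 and 11.00 with the control MO and 11.32, 11.38 and 11.87 with setb MO1. It rose by 1.11 ± 0.33 (SE, adjusted p = 0.0282), although its control arrays spread more widely than the distance between the groups. It did not pass without control replicate 2 (adjusted p = 0.0614), setb MO1 replicate 2 (0.0583) or setb MO1 replicate 3 (0.0885). Its control arrays ran in the opposite order to those of tfap2d, with replicate 1 lowest. The gene cited1 fell (−0.47 ± 0.13, adjusted p = 0.0242) but did not pass without control replicate 2 (0.0710), setb MO1 replicate 1 (0.0780) or setb MO1 replicate 2 (0.0592). Differences of cited4a (0.20 ± 0.11) and cited4b (−0.24 ± 0.10) did not pass.

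The p300 gene ep300a fell (−0.31 ± 0.06, adjusted p = 0.00605) and passed with each single array left out, whereas the CBP genes crebbpa (−0.20 ± 0.08) and crebbpb (−0.18 ± 0.07) did not pass. The nucleophosmin gene npm1a rose (0.50 ± 0.08, adjusted p = 0.00252), also with each single array left out. Its levels were 11.47, 11.27 and 11.24 with the control MO and 11.85, 11.87 and 11.77 with setb MO1. Nucleophosmin, a nucleolar histone chaperone, is known as a corepressor of an AP-2 protein in human cells. Its second gene npm1b fell (−0.24 ± 0.07, adjusted p = 0.0241), as did yeats4, a chromatin reader (−0.28 ± 0.08, adjusted p = 0.0224). Neither of these passed without control replicate 2, setb MO1 replicate 2 or setb MO1 replicate 3. The gene wwox, whose product binds an AP-2 protein in human cells, differed by 0.08 ± 0.06 and did not pass.

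**Figure D3:**
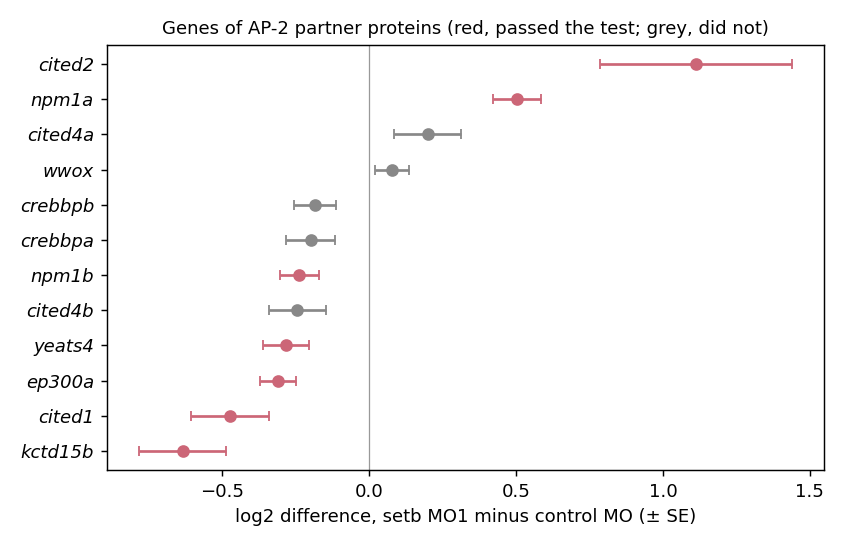
Log2 difference of setb MO1 minus control MO for the 12 measured genes of AP-2 partner proteins, with bars of ± SE (n = 3 and 3). Red points passed the limma test and grey points did not; cited2 at 1.11 and npm1a at 0.50 lie to the right, and kctd15b at −0.64 lies farthest to the left.

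The genes whose values ran most like those of tfap2d were found by the root mean square difference over the 6 arrays after each gene's own mean was subtracted. Genes named only by a clone or locus identifier were passed over, so nearer genes of that kind would not be seen. The nearest of the 10575 genes searched were vsx1 (0.21), nr2e3 (0.22), shox (0.28), atoh7 (0.33), rorb (0.34) and sox12 (0.36), all transcription factor genes. Factors of retinal bipolar cells (vsx1), rods (nr2e3) and retinal ganglion cells (atoh7) are among them. Their differences were −2.95 ± 0.26 for vsx1, −2.48 ± 0.11 for nr2e3, −2.38 ± 0.14 for shox, −3.35 ± 0.08 for atoh7, −2.20 ± 0.08 for rorb and −2.34 ± 0.21 for sox12 (SE). Like tfap2d, the genes vsx1, nr2e3, shox, atoh7 and rorb reached 8.45 only with the control MO, so they had to differ to be present. On setb MO1 replicates 1 and 2 the atoh7 value was the lowest of the array, and its difference may be understated. Since few genes differed by this much, likeness to tfap2d here mostly means a large decrease. In all 6 genes, as in tfap2d, control replicate 1 was the highest and replicate 3 the lowest control array, a likeness that the choice of the genes favours.

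**Figure D4:**
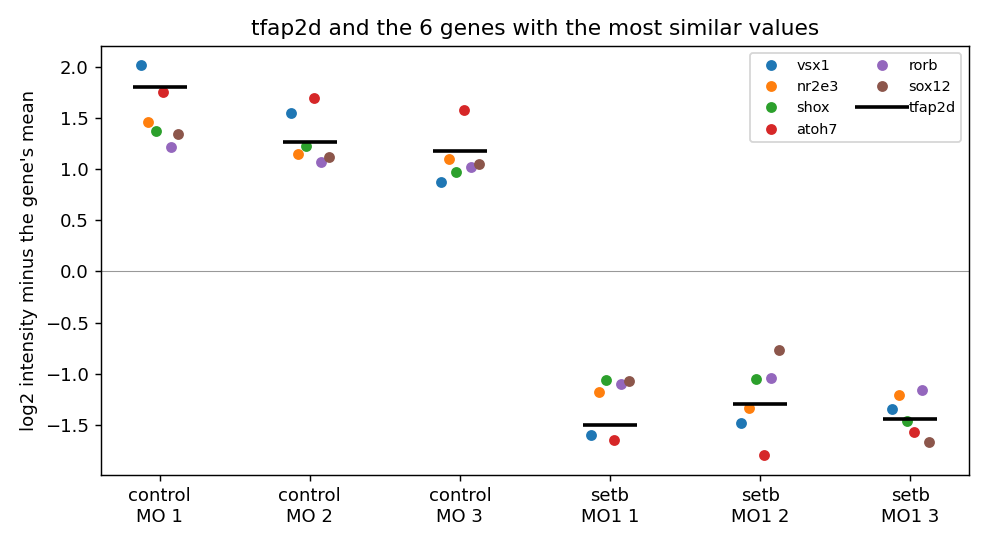
Log2 intensity minus the gene's mean over the 6 arrays, for tfap2d (black bars) and the 6 genes nearest to it (points), by array. All lie above 0 in the 3 control arrays and below 0 in the 3 setb MO1 arrays.

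The nearest genes to tfap2b were lrrc4.1 (0.05), the LIM homeobox gene lhx1b (0.08) and the lens filament gene bfsp2 (0.08), with differences of −1.26 ± 0.10, −1.35 ± 0.10 and −1.38 ± 0.13. Those nearest to tfap2e were rundc3ab (0.04), the homeobox gene irx5b (0.04) and map6a (0.05), the last encoding a microtubule-associated protein, with differences of −1.0 ± 0.06, −0.99 ± 0.06 and −0.93 ± 0.06. Among these neighbours of tfap2b and tfap2e, bfsp2 and map6a reached 8.45 only with the control MO, so they had to differ to be present. Near tfap2a were the cadherin gene cdh7a, eaf1 and tpt1 (0.02 each), and near tfap2c lemd3 (0.01), tmco1 (0.02) and zc3h18 (0.02). Small differences between groups make close matches common, so these distances are not comparable between the AP-2 genes.

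Genes of the tissues in which AP-2 factors are known to act were counted in the same fit, with the tfap2 genes themselves left out and with some genes on several lists. These lists were chosen with earlier results of these data known, so their counts and medians beside those of all genes are a description. A gene that reached the limit of 8.45 in 1 group alone had to differ between the groups to be present at all, so the numbers of such genes are given with the counts. Of 18 measured genes of amacrine and horizontal cells, where AP-2 factors mark inhibitory retinal neurons, 15 fell, none rose and 3 did not pass, with a median of −0.76. Of the 15, 3 reached the limit only with the control MO, namely gad1b, gad2 and slc6a1a, which leaves 12 falls among the other 15 genes. The smallest p-values belonged to lhx1a (−1.82 ± 0.07), a factor of horizontal cells, foxn4 (−1.95 ± 0.09), a factor of their precursors, gad2 (−1.58 ± 0.09), which makes GABA, and the GABA transporter gene slc6a1a (−1.20 ± 0.08). Many of these genes are also expressed in the brain. Of 25 genes of retinal ganglion cells and their axons, 21 fell, none rose and 4 did not pass, with a median of −0.61. Of the 21, 5 reached the limit only with the control MO, namely atoh7, irx4a, pou4f2, eomesa and isl2b, which leaves 16 falls among the other 20 genes. Here atoh7, irx4a (−0.90 ± 0.07), ebf3a (−0.89 ± 0.08) and the POU factor gene pou4f2 (−1.62 ± 0.16) had the smallest p-values. Several genes of this list are expressed by neurons at large.

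Of 34 genes of the optic tectum and midbrain, 20 fell, 4 rose and 10 did not pass, with a median of −0.43. Here too 5 of those that fell reached the limit only with the control MO, tal2 among them, which leaves 15 of 29. After lhx1a, which is on this list as well, the smallest p-values belonged to tal2 (−1.57 ± 0.08), a factor of GABAergic midbrain neurons, otx2b (−1.54 ± 0.09) and barhl1b (−0.98 ± 0.07). The growth factor gene fgf8a of the midbrain-hindbrain boundary, chosen after the values were seen, was higher by 0.997 ± 0.082 and passed. Other genes of that region on the list, also named afterwards, went both ways. The gene wnt1 rose (0.86 ± 0.13), and pax2b (−0.91 ± 0.06) and en1b (−0.41 ± 0.07) fell. The genes pax2a, pax5, pax8, en2a and en2b did not pass. The medians of these 3 neural lists were below the 0.02 of all genes, of which 20.7% were called lower. They include the genes that had to differ to be present, as do the mean levels that follow. Over all 11304 named genes, 650 reached the limit only with the control MO and 554 only with setb MO1. The mean log2 level of the list was 10.31 to 10.33 in control and 9.50 to 9.51 in setb MO1 arrays for amacrine and horizontal cells. It was 10.21 to 10.28 and 9.55 to 9.62 for ganglion cells, and 9.94 to 9.99 and 9.49 to 9.61 for the tectum and midbrain. Counts of genes called were 14 to 15, 18 to 21 and 18 to 20 lower when single arrays were left out. The part of a change in the number of neural cells in the values of tfap2d and tfap2b was not tested.

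Genes of the neural crest and pigment cells, the tissue best known for tfap2a, mostly did not pass. Of 35 measured, 8 fell, 4 rose and 23 did not pass, with a median of −0.09. The share that fell, 22.9%, was near the 20.7% of all genes, and the share that rose was 11.4% against 23.8%, so the counts single out no change of this list. The endothelin receptor gene ednrba of pigment cells (−1.03 ± 0.08), which reached the limit only with the control MO, the cartilage factor gene sox9b (−0.76 ± 0.06) and the jaw factor gene barx1 (−0.90 ± 0.11) fell, and ednrab, an endothelin receptor gene of the jaw crest, rose by 1.03 ± 0.14. The number of crest genes that rose was 2 without control replicate 2, setb MO1 replicate 2 or setb MO1 replicate 3. Named after their values were seen, the crest factor genes foxd3 (−0.03 ± 0.08) and sox10 (0.21 ± 0.10) and the pigment cell receptor gene kita (0.05 ± 0.13) did not pass. The remaining genes that passed are also named afterwards. Those that fell were sox9a (−0.43 ± 0.07), dlx2a (−0.43 ± 0.07), xdh (−0.48 ± 0.10), tyr (−0.35 ± 0.08) and pax7a (−0.50 ± 0.14). The gene pax7a is on the list of the tectum and midbrain as well, and it passed in only 2 of the 6 fits with 1 array left out. Those that rose were snai1b (0.68 ± 0.16), dlx3b (0.27 ± 0.08) and snai2 (0.29 ± 0.09). With 1 array left out, dlx3b passed in 2 and snai2 in 3 of the 6 fits.

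Genes of the periderm and of the epidermis, which arises from the non-neural ectoderm where tfap2a and tfap2c act, were higher as a list. Of 38 measured, 26 rose, none fell and 12 did not pass, with a median of 0.35 beside 23.8% of all genes called higher, and 19 to 26 rose without single arrays. Of the 26, 2 reached the limit only with setb MO1, cldna and krt96. The adhesion genes cdh1 (0.57 ± 0.06), pkp3a (0.64 ± 0.07) and pkp1b (0.92 ± 0.11) and the gene icn2 (0.79 ± 0.09) had the smallest p-values. Neither tfap2a nor tfap2c rose with these genes. Named after their values were seen, tp63 (0.12 ± 0.07) and most keratin genes of the list did not pass. These were krt4 (0.06 ± 0.06), krt5 (−0.15 ± 0.09), krt8, krt91, krt92, krt94 and cyt1l. The keratin genes krt96 (0.81 ± 0.25) and krt97 (0.40 ± 0.09) rose. With setb MO1, krt96 was at 9.44, 9.47 and 8.47. With 1 array left out it passed in only 1 of 6 fits, that without setb MO1 replicate 3 (limma adjusted p up to 0.107 in the others), whereas krt97 passed in all 6. Of 19 genes of the distal pronephros, 6 rose, 5 fell and 8 did not pass, with a median of 0.13. These shares, 31.6% higher and 26.3% lower, stand beside 23.8% and 20.7% of all genes and are near them. On this list lhx1a, mecom (−0.67 ± 0.06) and irx2a (−0.71 ± 0.07), which encode transcription factors, fell, and slc12a1, a salt cotransporter gene of the nephron, rose by 0.80 ± 0.08, having reached the limit only with setb MO1.

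**Figure D5:**
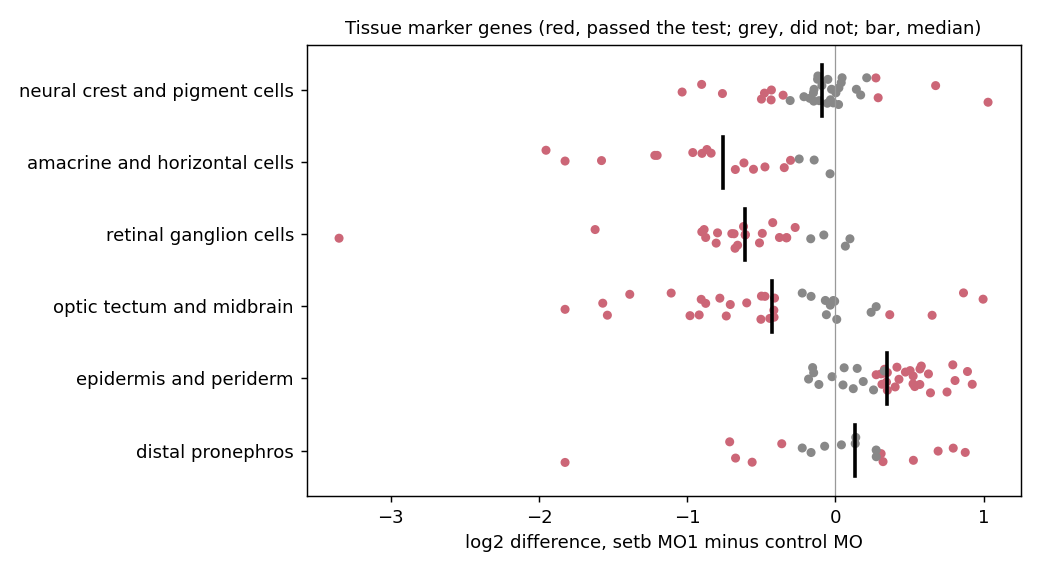
Log2 difference of setb MO1 minus control MO for each measured gene of 6 tissue lists, spread vertically at random for visibility, with black bars at the list medians. Red points passed the limma test and grey points did not; the medians of the 3 neural lists lie between −0.76 and −0.43, that of the neural crest at −0.09 and that of the epidermis at 0.35.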

How the data were processed

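The authors deposited log2 intensities, 1 per probe set and array. The submitters' processing notes name RMA, a method that subtracts background, equalises the arrays' distributions and combines the probes. Its version is not given in these sources. Every probe set reached 8.45 on at least 1 array, so dim probe sets had been removed by a filter these sources do not give. Detection calls, probe sequences and protein or promoter sequences were not used here. Names came from the platform annotation, with 11738 having 1 symbol, of which 11497 matched a RefSeq gene table (GRCz12tu, used for names and neighbours). A gene on a list was represented by its brightest probe set.

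Groups came from the treatment labels. The contrast was fitted by limma 3.58.1 (R 4.3.3) (lmFit, eBayes, two-sided) over all 15726 probe sets, with Benjamini-Hochberg adjustment at 0.05, checked on simulated data. Named were all tfap2 genes, all measured partners, up to 4 genes of smallest p per tissue list, and the 6 genes nearest to tfap2d and 3 nearest to each other member. Clone and locus identifiers were passed over in the search for the nearest genes. The members, the 7 lists and the tests were chosen with earlier results of these data known, and exceptions are said to have been named afterwards. Alternatives covered scaling, filters, priors, array weights, the replicate block, thresholds, representation of genes and leaving out each array.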

Additional observations from a re-analysis of the deposited data

How the results depend on the processing

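The decreases of tfap2b and tfap2e kept their direction and passed under all 14 alternatives. That of tfap2d, given without a test, ranged from −2.95 to −2.63 over its 12 alternatives. The filters on mean level, at the 30th percentile and at the median, removed its probe set and so gave no value for it. The block on replicate number changed no call on an AP-2 gene except tfap2a, whose call was lost (−0.24, adjusted p = 0.0537). Deviations of same-numbered arrays from their group means correlated at r = −0.0056, −0.32 and 0.33 for numbers 1, 2 and 3. Arrays of unlike number gave −0.31 to 0.38. No same-numbered value was above the highest of the unlike-numbered ones. Deviations within a group of 3 sum to 0, so these values depend on each other, and whether the numbers pair the samples was not tested. The call on tfap2a was also lost without control replicate 2, setb MO1 replicate 1 or setb MO1 replicate 3, with changes of −0.26 to −0.20 over single arrays left out. For tfap2c, which passed under none of the 14 alternatives, the change turned to 0.044 when control replicate 1 was left out and to 0.016 when setb MO1 replicate 1 was left out, and it lay between −0.077 and 0.044 over single arrays left out. Of all probe sets, 6924 were called (3361 lower, 3563 higher). The count was 3410 above the median level (1561 and 1849), where fewer were tested, 4069 at a threshold of 0.01 (2045 and 2024) and 10602 with array weights (5060 and 5542), where control replicate 2 had a weight of 58.9 and the others at most 0.803. Above the 30th percentile 2213 were lower. Without single arrays 4702 to 6891 were called, 2339 to 3350 lower and 2363 to 3541 higher. Without single arrays the partner list had 2 to 6 lower and 1 to 3 higher, and the neural crest list 2 to 4 higher.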
